A study of Mus musculus with 6 samples.

Results

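Glycolysis, lactate and pyruvate metabolism was examined through 33 mouse genes fixed by name: the enzymes that turn glucose into pyruvate, the lactate dehydrogenases, the carriers of glucose, lactate and pyruvate, the pyruvate dehydrogenase complex with its kinases, and the enzymes that set fructose 2,6-bisphosphate. Each gene was represented by the probe row that named it alone and was brightest over the 6 arrays, which gave 29 measured genes out of 22180 genes on the arrays. Gpi1, Aldoa, Eno1 and Mpc2 had no row naming them alone and were not analysed here. The rule uses the gene names and the brightness of rows, and no difference between groups.

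The ethanol group was 3 arrays of RNA from male C57BL/6J mice injected under the skin with ethanol (2.5 g/kg in 0.15 M NaCl) on postnatal days 4 and 7, 2 times a day with 2 hours between. The saline group was 3 arrays from male mice of the same inbred strain given saline at those times, and pups of a litter were divided between the groups. Every array held pooled RNA from 3 mice, so 18 mice entered the study and no value belongs to a single animal. Age at tissue collection is given as 21 days in the sample characteristics and the design text and as day 70 in the treatment protocol. The tissue is labelled whole hippocampus.

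In brain tissue glucose is split to pyruvate in the cytosol, and pyruvate is either reduced to lactate or carried into mitochondria and oxidised by the pyruvate dehydrogenase complex. Astrocytes are known for active glycolysis and lactate release, and neurons for the uptake and oxidation of lactate. The kinases Pdk1 to Pdk4 phosphorylate and switch off the pyruvate dehydrogenase complex, so they set how much pyruvate enters the citric acid cycle.

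The label was checked against cell type genes listed for this purpose. All 11 listed genes of cerebellar granule cells were measured and stood above the median gene, the dimmest being Neurod1 at a mean log2 value of 8.12. Their median brightness percentile among all genes was 98.1. For the 7 measured Purkinje cell genes it was 98.5, the dimmest being Gad1 at 7.19. Among the granule cell genes, the row used for Etv1 lies among rows of chromosome 13, whereas the gene is on chromosome 12. Rows of this kind are described below for Gapdh, Pgam1 and Mpc1. Gabra6, a GABA-A receptor subunit of granule cells, stood at 12.21 in ethanol and 12.13 in saline. Genes listed for hippocampal and telencephalic neurons were mixed, with 5 of 12 above the median gene, which stood at 7.10, and 7 below it. The median percentile of these 12 was 38.2. Camk2a, a kinase abundant in forebrain excitatory neurons, stood at 9.73 in ethanol and 9.79 in saline, and Wfs1 at 8.71 in ethanol and 8.74 in saline. Neurod6, a transcription factor of pyramidal neurons, stood at 6.68 in ethanol and 6.83 in saline, and Emx2 at 5.18 in ethanol and 5.38 in saline. These examples were chosen after their values were seen. By median percentile the 2 cerebellar lists (98.1 and 98.5) stood well above the hippocampal and telencephalic list (38.2). The label whole hippocampus was thus not borne out by these lists, and the values below are not taken as hippocampal. Probes differ in their response, so these levels do not measure the share of either region in the RNA. In a bulk extract, fewer cells of a type and less RNA per cell cannot be told apart.

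Some arrays stood apart. Values were spread most widely over rows on ethanol array 2 (SD 2.03) and most narrowly on saline array 2 (SD 1.97). Across rows, saline array 1 correlated with the ethanol arrays at 0.990 to 0.992 (Pearson) and with both other saline arrays at 0.987.

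Almost all of these genes lay slightly higher after ethanol, and none passed the test. Of the 29 genes, 27 had a higher mean in ethanol and 2, Pfkl and Slc16a3, a lower one, with a median log2 difference (ethanol minus saline) of 0.06. The same direction held for 57.2% of all 22180 genes, with a median of 0.02. In limma 0 of the 29 passed an adjusted p of 0.05, where 0.0% of all 41345 rows passed. At an unadjusted p under 0.05 there were also 0 of 29, against 3.18% of genes and 5.54% of rows. The smallest unadjusted p of a member was 0.0989 (adjusted p = 0.857 in limma, 3 arrays against 3). By direction, 1.2% of all genes were higher and 1.98% lower at that threshold. The groups did not overlap in 4 of 29 genes (13.8%), a share near the background of 10.5% of genes and 11.1% of rows. All 4 were higher in ethanol, where 5.74% of genes stood apart, and 0 were lower, against 4.72%. With quantile normalization the groups did not overlap in 1 of the 29, and after cyclic loess, described below, also in 1. The share of all genes apart was not counted under these scalings. All 29 intervals at 95% held 0, and in 28 of 29 genes the whole interval lay within 0.5 log2 of 0.

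**Figure D1:**
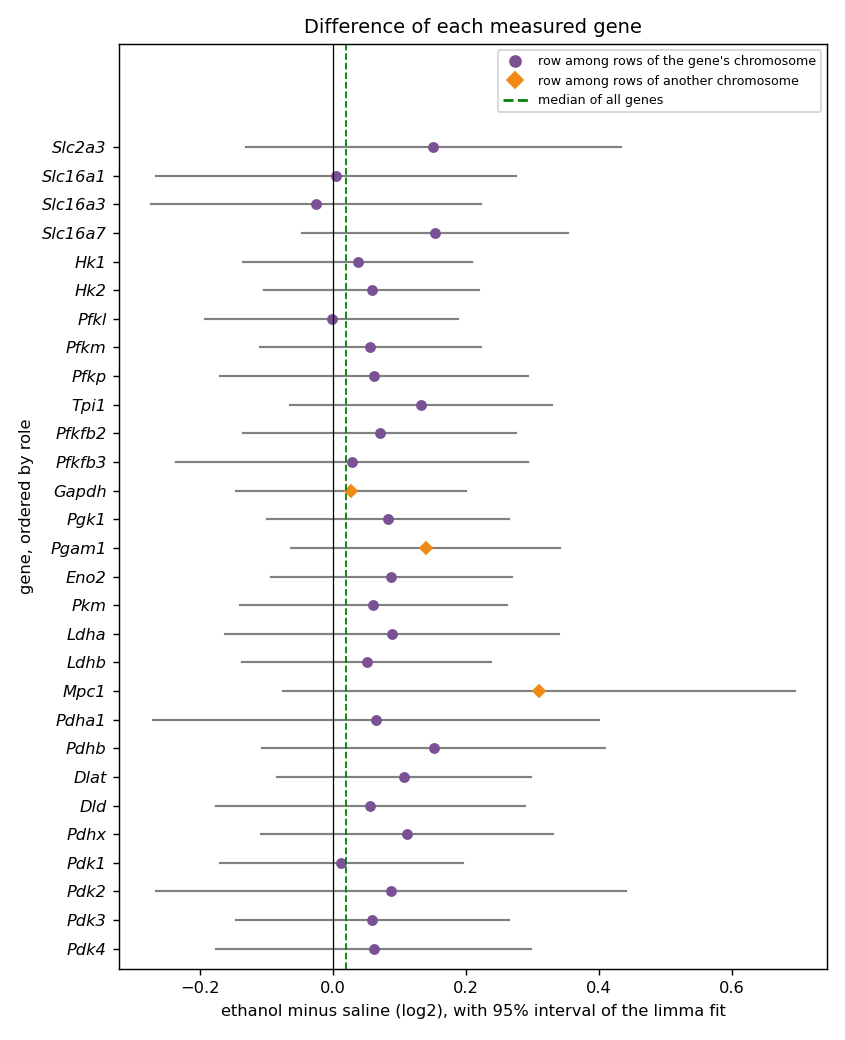
Log2 difference, ethanol minus saline, of each of the 29 measured genes (points) with its 95% interval from the limma fit (bars, 3 arrays against 3); diamonds mark Gapdh, Pgam1 and Mpc1, whose rows lie among rows of another chromosome, and the dashed line is the median of all genes at 0.02. Every interval crosses 0, and Mpc1 at 0.31 has the widest.

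The direction went with brightness. When all genes were ranked by mean value and cut into 10 bins of equal size, 16 of the 29 fell in the top bin, and the median member was at percentile 93.6. In the 2 brightest bins together 88.9% of 4436 genes were higher in ethanol, with a median difference of 0.08, and 19 of the 19 members there were higher, also with a median of 0.08. In the 8 other bins 8 of 10 members were higher. Counted from the dimmest, these 10 lay in bins 5 to 8, where 42.8% to 75.2% of all genes were higher. Of the 29 genes, 15 had their highest value on ethanol array 2 and 17 their lowest on saline array 2; in the 2 brightest bins 47.8% and 59.1% of all genes did, against 23.1% and 29.7% over all bins. Arrays numbered 2 thus held the extremes for these genes as for other bright genes. In an alternative chosen after seeing the data, without these 2 arrays, 16 of 29 genes were higher in ethanol and the median difference was 0.02. After cyclic loess, which removes trends with brightness between arrays, it was also 16 of 29, with a median of 0.00, where 54.5% of all genes were higher. The part of brightness and of these arrays in the single differences below was not tested.

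**Figure D2:**
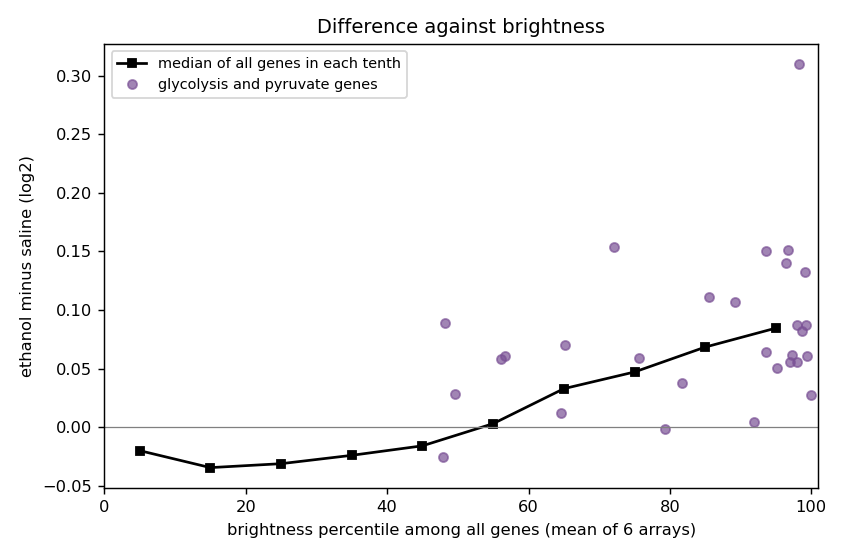
Log2 difference, ethanol minus saline, against the percentile of a gene's mean value among all genes; circles are the 29 genes and the black line joins the medians of all genes in 10 equal bins. The line climbs to 0.08 in the brightest bin, which holds 16 of the circles.

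The transporters bring glucose and lactate into cells. Slc16a7, the high-affinity monocarboxylate carrier MCT2 of neurons, stood at 8.13, 8.29 and 8.23 on the ethanol arrays, against 7.96, 8.10 and 8.13 on the saline arrays. Its groups did not overlap, although ethanol array 1 and saline array 3 were nearly level. The difference was 0.15 ± 0.08 (log2, SE, 3 arrays against 3; adjusted p = 0.857 in limma). Slc2a3, the neuronal glucose transporter GLUT3, stood at 9.86, 9.81 and 9.73 in ethanol, against 9.89, 9.47 and 9.59 in saline. Saline array 1 was the highest of all 6, so the groups overlapped, and the difference was 0.15 ± 0.12 (adjusted p = 0.868 in limma). The Slc2a3 difference was 0.27 without saline array 1 (unadjusted p = 0.0231, adjusted p = 0.483 in limma), 0.061 without saline array 2 and 0.058 without both arrays numbered 2. Slc16a1, the carrier MCT1 of endothelium and glia, had 9.38, 9.75 and 9.47 in ethanol and 9.45, 9.61 and 9.52 in saline. In each group array 2 was the highest, and the difference was 0.00 ± 0.11. Slc16a3, the carrier MCT4 known for lactate export from glycolytic cells, was near the median gene in brightness, with 6.97, 6.94 and 7.08 in ethanol and 7.05, 7.18 and 6.84 in saline. Its groups overlapped fully at a difference of -0.03 ± 0.10.

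Upper glycolysis takes glucose to triose phosphates. Hk2, the inducible hexokinase, stood at 7.42, 7.41 and 7.37 in ethanol, against 7.36, 7.33 and 7.33 in saline. These were the tightest values of any member, with an SD of 0.03 in ethanol and 0.01 in saline, and the groups did not overlap. The difference was 0.06 ± 0.07, or 1.04-fold (adjusted p = 0.902 in limma, whose SE pools the spread of this row with that of all rows). Hk1, the constitutive hexokinase of brain, differed by 0.04 ± 0.07 with overlapping groups. Pfkl, the liver-type subunit of phosphofructokinase, had 8.51, 8.52 and 8.57 in ethanol and 8.64, 8.51 and 8.46 in saline. The saline arrays spanned the ethanol arrays, and the difference was -0.00 ± 0.08. The muscle-type subunit Pfkm and the platelet-type subunit Pfkp were 0.06 and 0.06 higher, with overlapping groups. Tpi1, triose phosphate isomerase, had 11.24, 11.31 and 11.15 in ethanol and 11.19, 11.02 and 11.10 in saline, a difference of 0.13 ± 0.08. Pfkfb2 and Pfkfb3 make and break down fructose 2,6-bisphosphate, the activator of phosphofructokinase. They differed by 0.07 ± 0.09 and 0.03 ± 0.11, and for Pfkfb3 the highest value was again on saline array 1, at 7.26.

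Promoters are shown for Hk2 and Dlat, whose groups did not overlap and whose rows lie on their own chromosome, and for Ldha, a textbook target of the hypoxia factor HIF-1. Slc16a7 met the same conditions as Hk2 and Dlat, but no RefSeq promoter was found for it. Each line holds the 250 bases before the RefSeq start on build GRCm38.p6, read 5′ to 3′ along the gene, with capitals marking the HIF core, spelled ACGTG or GCGTG on either strand.
Hk2: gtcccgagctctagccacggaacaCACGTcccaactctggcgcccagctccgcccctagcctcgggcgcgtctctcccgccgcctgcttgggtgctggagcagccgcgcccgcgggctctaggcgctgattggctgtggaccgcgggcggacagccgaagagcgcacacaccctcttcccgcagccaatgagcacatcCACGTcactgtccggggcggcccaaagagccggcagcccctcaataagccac
Dlat: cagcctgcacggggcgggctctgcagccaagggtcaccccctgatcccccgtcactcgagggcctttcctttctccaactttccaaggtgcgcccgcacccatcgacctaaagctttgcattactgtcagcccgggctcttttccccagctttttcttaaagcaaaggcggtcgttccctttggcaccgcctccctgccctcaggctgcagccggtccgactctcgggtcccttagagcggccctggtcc
Ldha: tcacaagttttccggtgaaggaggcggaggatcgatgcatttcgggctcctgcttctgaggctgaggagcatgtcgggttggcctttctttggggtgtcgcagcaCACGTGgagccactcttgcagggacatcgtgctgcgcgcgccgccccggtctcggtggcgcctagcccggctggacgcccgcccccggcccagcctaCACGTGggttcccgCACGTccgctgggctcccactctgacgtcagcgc

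These stretches lie at chr6:82774455-82774704 on the minus strand for Hk2, chr9:50659781-50660030 on the minus strand for Dlat and chr7:46845554-46845803 on the plus strand for Ldha. The core was matched 2 times in Hk2, 0 times in Dlat and 5 times in Ldha, where the palindrome CACGTG, also an E-box, is counted on both strands. For Ldha the start with the lower coordinate is shown. RefSeq promoters were found for 27 of the 29 measured genes, with 39 starts in all, and none for Slc2a3 and Slc16a7. The core was held by 29 of the 39 (74.4%), against 38.6% of 32851 promoters, each read over the same 250 bases before its start. The promoters of the measured genes were richer in G and C, with a median of 61.6% against 52.4%, so the shares are not matched for base composition. A match is a description of these letters, and their absence says only that they are not in the stretch read.

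Lower glycolysis takes triose phosphates to pyruvate and was bright, with a median brightness percentile of 99.3 over its 5 measured genes. Pgk1, phosphoglycerate kinase, had 10.99, 11.02 and 10.94 in ethanol and 10.98, 10.83 and 10.89 in saline, a difference of 0.08 ± 0.08. Eno2, the enolase of neurons, had 11.39, 11.46 and 11.40 in ethanol and 11.41, 11.26 and 11.32 in saline, a difference of 0.09 ± 0.08. Pkm, the pyruvate kinase of brain, differed by 0.06 ± 0.08. In all 3 genes saline array 1 overlapped the ethanol arrays and saline array 2 was the lowest. Pgam1, phosphoglycerate mutase, had 10.25, 10.31 and 10.20 in ethanol, against 10.15, 10.19 and 9.99 in saline. Its groups did not overlap, although ethanol array 3 and saline array 2 were nearly level, and the difference was 0.14 ± 0.09 (adjusted p = 0.857 in limma), or 0.079 without saline array 3. Gapdh, the glyceraldehyde phosphate dehydrogenase, differed by 0.03 ± 0.07 at a percentile of 99.9.

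The rows of Gapdh, Pgam1 and Mpc1 lay outside their own chromosomes. Row numbers on this array follow genome order: of 23325 rows naming a single gene with a known chromosome, 99.0% had at least 5 of their 10 nearest named rows on that gene's chromosome. The kept rows of 26 of the 29 genes did, but those of Gapdh, Pgam1 and Mpc1 had none, as was true of 0.737% of rows. The kept Pgam1 row lies among rows of chromosome 3, whereas Pgam1 is on chromosome 19 from 41911871 to 41918665. Pgam1 also has a dimmer row among rows of chromosome 19. That row had 8.15, 8.26 and 8.05 in ethanol, against 8.57, 8.06 and 7.94 in saline, with overlapping groups and a difference of -0.04 ± 0.17. Saline array 1 was the highest of all 6 there. Which of the 2 rows reports the transcript of the gene was not tested.

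Mpc1, a subunit of the carrier that takes pyruvate into mitochondria, showed the same split in a larger form. Its kept row, among rows of chromosome 12, had 11.06, 11.01 and 10.60 in ethanol, against 10.83, 10.42 and 10.49 in saline. This was the largest difference of the 29 genes, at 0.31 ± 0.16 (adjusted p = 0.857 in limma), but the groups overlapped, since ethanol array 3 was below saline array 1. It was 0.17 without both arrays numbered 2, 0.46 without ethanol array 3 (unadjusted p = 0.0197, adjusted p = 0.870 in limma) and 0.44 without saline array 1 (unadjusted p = 0.0323, adjusted p = 0.505 in limma). Its other row lies among rows of chromosome 17, where the gene is from 8283787 to 8297667. That row had 7.73, 7.65 and 7.56 in ethanol, against 7.59, 7.73 and 7.67 in saline, and the difference was -0.02 ± 0.08. The largest difference of the 29 genes was thus measured on a row among rows of another chromosome, and the row on the gene's own chromosome differed by near 0. For Gapdh all 3 rows naming it alone lay elsewhere, among rows of chromosomes 11, 5 and Y, with differences of 0.03, 0.04 and 0.17. Gapdh itself lies on chromosome 6 from 125161852 to 125166467. Gapdh is known for many near-identical pseudogenes, so its values are uncertain. Whether any of these rows measures a copy elsewhere was not tested. With rows from their own chromosome, and Gapdh left out, an alternative chosen after seeing the data, 24 of 28 genes were higher in ethanol, with a median of 0.06.

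**Figure D3:**
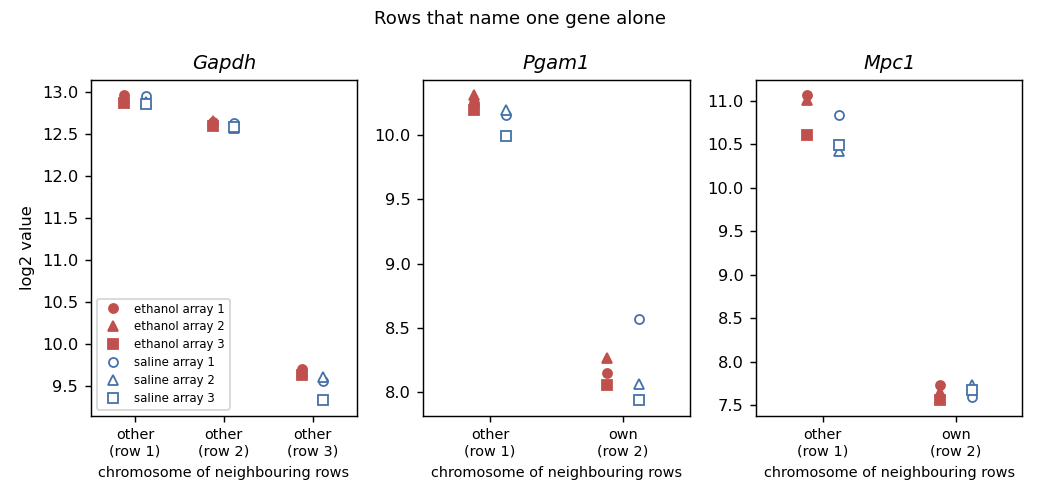
Log2 values of every row that names Gapdh, Pgam1 or Mpc1 alone, brightest row at left; filled red symbols are ethanol arrays and open blue symbols saline arrays, and the label gives whether neighbouring rows lie on the gene's own chromosome. The differences of Pgam1 and Mpc1 are 0.14 and 0.31 in the row lying elsewhere and -0.04 and -0.02 in the row of the gene's own chromosome.

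Lactate dehydrogenase interconverts pyruvate and lactate. Ldha, the subunit common in glycolytic tissue, was dim, at percentile 48.1, with 7.00, 7.23 and 6.95 in ethanol and 6.85, 6.99 and 7.08 in saline. Ethanol array 2 was the highest, and the difference was 0.09 ± 0.11, or 0.0048 without that array. Ldhb, the subunit common in heart and neurons, had 9.96, 10.04 and 9.94 in ethanol and 10.01, 9.85 and 9.93 in saline, a difference of 0.05 ± 0.08. The balance between the subunits was followed as the difference of their log2 values on the same array, which an equal shift of all rows does not move. An array trend with brightness can move it, since Ldha and Ldhb stood at percentiles 48.1 and 95.2. Ldha minus Ldhb averaged -2.92 ± 0.09 over ethanol arrays and -2.95 ± 0.18 over saline arrays (SD, n = 3 each), with an exact permutation p of 0.8.

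Of 8 isoform pairs chosen for this within-array balance, 6 could be measured. Slc16a1 minus Slc16a7, the balance of MCT1 and MCT2, had 1.25, 1.46 and 1.23 in ethanol, against 1.49, 1.51 and 1.40 in saline. Ethanol array 2 alone overlapped the saline arrays. The difference between groups was -0.15 (exact permutation p = 0.2, adjusted p = 1 over the 6 pairs, two-sided), and with 3 arrays against 3 no exact p can go below 0.1. The other pairs differed between groups by -0.04 to 0.04, among them Hk2 minus Hk1, Pfkp minus Pfkm, Pdk4 minus Pdk2 and Pfkfb3 minus Pfkfb2. Pdk4 minus Pdk2 was -3.26, -3.30 and -3.25 in ethanol, against -3.76, -2.95 and -3.02 in saline, where the arrays were far apart. Some pairs joined genes of unlike brightness. Slc16a1 and Slc16a7 stood at percentiles 92.0 and 72.1, and Pdk4 and Pdk2 at 56.6 and 98.0. The part of array trends with brightness in these balances was not tested.

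The pyruvate dehydrogenase complex joins glycolysis to the citric acid cycle, and its 5 genes were all higher in ethanol, with a median difference of 0.11, as were 88.9% of all genes in the 2 brightest bins. Without both arrays numbered 2 the differences were -0.12 for Pdha1, -0.025 for Dld, -0.0034 for Pdhb, -0.00029 for Pdhx and 0.035 for Dlat, and after cyclic loess those of Pdha1 and Dld were also below 0, at -0.012 and -0.025. Pdhb, the beta subunit of the E1 enzyme, had 10.29, 10.46 and 10.21 in ethanol, against 10.28, 10.003 and 10.23 in saline. Ethanol array 2 was the highest and saline array 2 the lowest, and the difference was 0.15 ± 0.11 (adjusted p = 0.864 in limma), or 0.067 without saline array 2. Dlat, the E2 core, had 9.28, 9.34 and 9.31 in ethanol, against 9.25, 9.09 and 9.27 in saline. Its groups did not overlap, although saline array 3 came close to ethanol array 1, and the difference was 0.11 ± 0.08 (adjusted p = 0.865 in limma), or 0.050 without saline array 2. Pdhx, which binds the E3 enzyme to the core, differed by 0.11 ± 0.09. Dld, the E3 enzyme shared with other dehydrogenases, differed by 0.06 ± 0.10. Pdha1, the E1 alpha subunit that the kinases phosphorylate, had 9.68, 9.94 and 9.68 in ethanol and 9.97, 9.50 and 9.63 in saline. Its saline spread (SD 0.24, n = 3) covered the ethanol values, and the difference was 0.06 ± 0.14.

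The kinases of the complex differed by 0.01 to 0.09. Pdk1 had 7.83, 7.69 and 7.80 in ethanol and 7.81, 7.71 and 7.76 in saline, a difference of 0.01 ± 0.08. Pdk2, a kinase prominent in brain, had 10.76, 10.66 and 10.66 in ethanol and 10.95, 10.39 and 10.48 in saline. It had the widest saline spread of the 29 genes, with an SD of 0.06 in ethanol and 0.30 in saline. Saline array 1 lay above every ethanol array and the other saline arrays below. The difference was 0.09 ± 0.15, or 0.26 without saline array 1 (unadjusted p = 0.0240, adjusted p = 0.488 in limma) and -0.022 without saline array 2. Pdk3 differed by 0.06 ± 0.09. Pdk4, the kinase induced by fasting and glucocorticoids, had 7.50, 7.36 and 7.41 in ethanol and 7.19, 7.44 and 7.46 in saline, a difference of 0.06 ± 0.10. Saline array 1 was the lowest for Pdk4 and the highest for Pdk2.

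**Figure D4:**
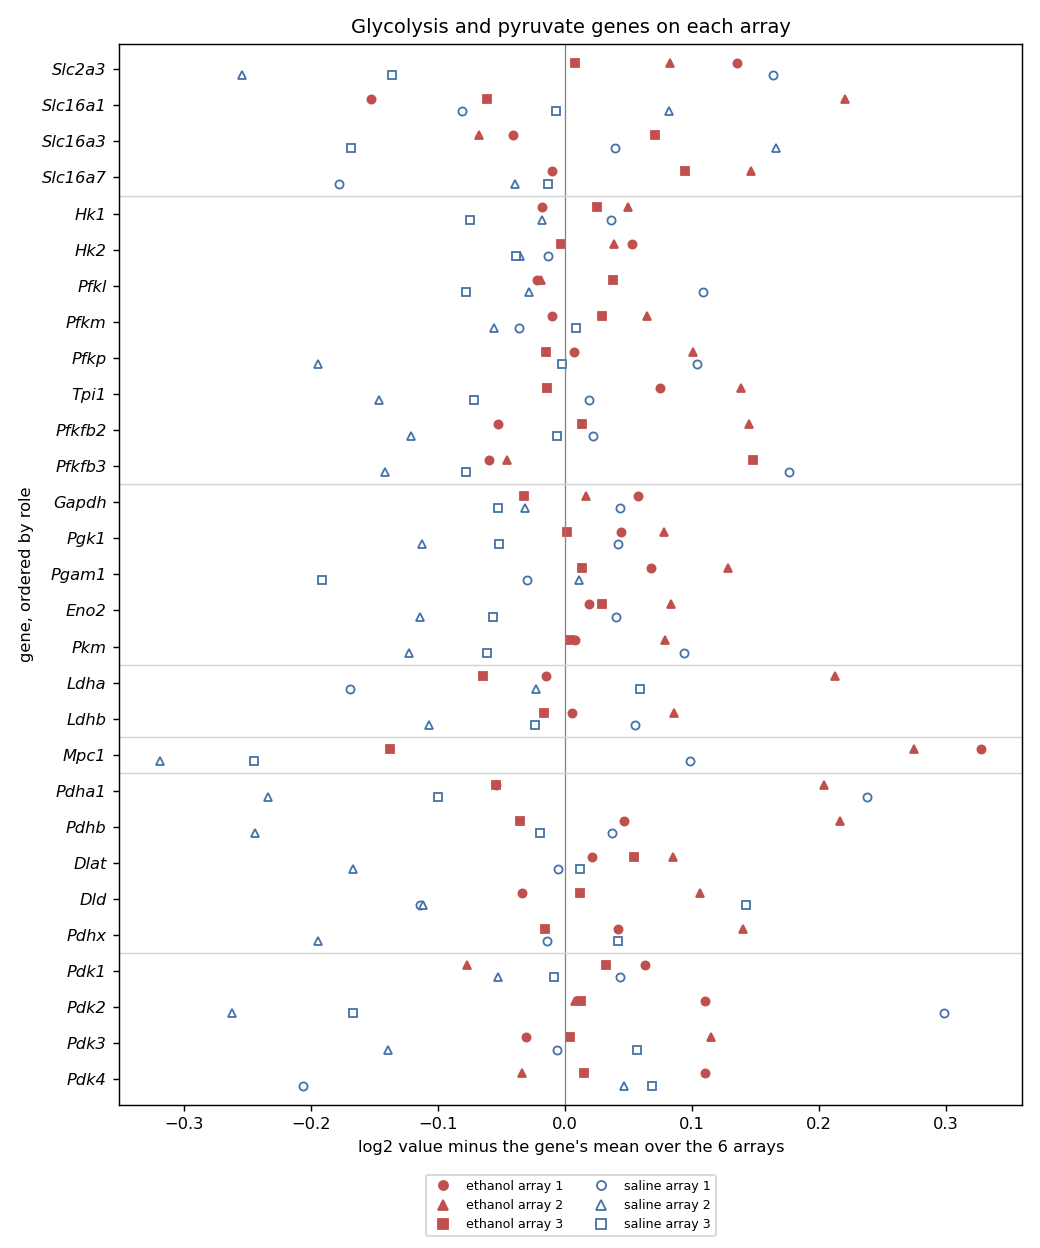
Log2 value of each gene on each array minus the gene's mean over the 6 arrays, ordered by role with the transporters at the top and the kinases at the bottom; filled red symbols are ethanol arrays, open blue symbols saline arrays, and the symbol's shape gives the array number. Saline array 2 (open triangles) is the lowest of all arrays in 17 of 29 genes, and saline array 1 (open circles) often lies among or above the ethanol arrays.

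The spread between arrays was wider in saline. The saline SD exceeded the ethanol SD in 22 of 29 genes, against 60.7% of all genes, and the median SD was 0.07 in ethanol and 0.10 in saline. Relative to each gene's mean over the 6 arrays, the median over the 29 genes was 0.01, 0.09 and 0.01 on the ethanol arrays, against 0.04, -0.11 and -0.04 on the saline arrays. Saline array 1 thus stood above ethanol arrays 1 and 3, and the groups overlapped in this summary too.

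Genes of the neighbouring pathways, listed by function, are given beside their brightness. Citric acid cycle genes were higher in 14 of 15 (median 0.09), and their groups did not overlap in 4, all higher, against 5.74% of all genes and 12.9% of those in the brightest bin, where 12 of the 15 lay. The 4 were Idh3b, a subunit of isocitrate dehydrogenase (0.14 ± 0.08), Fh1, fumarase (0.14 ± 0.08), Dlst, the E2 core of oxoglutarate dehydrogenase (0.10 ± 0.07), and Ogdh, its E1 enzyme (0.06 ± 0.07). These were chosen after their values were seen. Genes of the shuttles that carry NADH equivalents into mitochondria were higher in 8 of 8 (median 0.09), and those of ketone body use in 3 of 3 (median 0.08). These 3 lists were bright, with median percentiles of 94.8, 96.6 and 97.9. Glycogen genes were higher in 11 of 14 (median 0.07, percentile 70.1) and pentose phosphate genes in 3 of 6 (median 0.05, percentile 66.7). Gluconeogenesis genes were higher in 4 of 7 (median 0.02, percentile 47.2). The other glycolytic isoenzymes, which include germ cell, liver and muscle forms, were higher in only 4 of 11 (median -0.02, percentile 45.8). Groups also did not overlap in 1 shuttle, 1 glycogen and 1 gluconeogenesis gene, all higher, and in 2 of the other isoenzymes, both lower. The background was 10.5% of all genes. In these 7 lists 0 genes had an unadjusted p under 0.05 in limma in either direction.

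Among other transporters and sensors of glucose and lactate 8 of 13 were higher (median 0.05, percentile 61.9), with 0 higher and 1 lower at an unadjusted p under 0.05. That gene was Slc2a10, the glucose transporter GLUT10, which averaged 7.54 ± 0.05 over ethanol arrays and 7.72 ± 0.03 over saline arrays (SD, n = 3 each), with groups that did not overlap and a difference of -0.17 ± 0.07 (adjusted p = 0.857 in limma). Slc2a1, the GLUT1 transporter of the blood-brain barrier, differed by 0.05 ± 0.15, and Bsg, the partner that brings MCT1 to the cell surface, by 0.11 ± 0.09. Other regulators of phosphofructokinase and of the pyruvate dehydrogenase complex, such as the phosphatase subunit Pdp1, were higher in 5 of 8 (median 0.03, percentile 59.7). Hypoxia factors and their targets outside glycolysis were higher in 13 of 17 (median 0.04, percentile 80.5). In bin 9, counted from the dimmest, which holds that percentile, 85.0% of all genes were higher. Hif1a, the factor that switches on glycolytic genes at low oxygen, differed by 0.09 ± 0.08, and its target Vegfa by 0.02 ± 0.11. Neither list had a gene at an unadjusted p under 0.05. Groups did not overlap in 1 higher and 1 lower gene of the transporter list, and likewise of the hypoxia list. The other regulators had 0, and the background was 10.5% of all genes.

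Median differences of the cell type lists ran from -0.04 to 0.14, and their part in the differences above was not tested. Astrocyte genes were higher in 10 of 11 (median 0.09, percentile 94.2). Their mean levels over the list were 9.81 ± 0.07 over ethanol arrays and 9.71 ± 0.10 over saline arrays (SD, n = 3 each), which overlapped. Cerebellar granule cell genes were higher in 10 of 11 (median 0.08, percentile 98.1). In the brightest bin 92.8% of all genes were higher, with a median of 0.08. The mean level of the granule cell list did not overlap, with 10.56 ± 0.03 over ethanol arrays and 10.47 ± 0.02 over saline arrays (SD, n = 3 each). How often the mean of equally bright genes stands apart was not tested. Endothelial genes were higher in 7 of 8 (median 0.14, percentile 71.1) and Purkinje cell genes in 4 of 7 (median 0.04, percentile 98.5). Oligodendrocyte genes were higher in 8 of 9 (median 0.04, percentile 97.8) and microglia genes in 4 of 9 (median -0.04, percentile 65.1). Genes of hippocampal and telencephalic neurons were lower in 8 of 12 (median -0.04, percentile 38.2). Of the 67 measured cell type genes 4 (5.97%) had an unadjusted p under 0.05, against 3.18% of all genes. They were Aqp4, the astrocyte water channel (0.26 ± 0.07), Calb2, calretinin (0.18 ± 0.07), and Fibcd1 (-0.22 ± 0.08) and Iyd (-0.19 ± 0.08) of the hippocampal and telencephalic list. Each of the 4 had an adjusted p of 0.857 in limma. None of the 5 red blood cell genes listed had a row of its own. The dimmest member of the astrocyte list was Gjb6, at 7.15 in ethanol and 7.20 in saline.

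**Figure D5:**
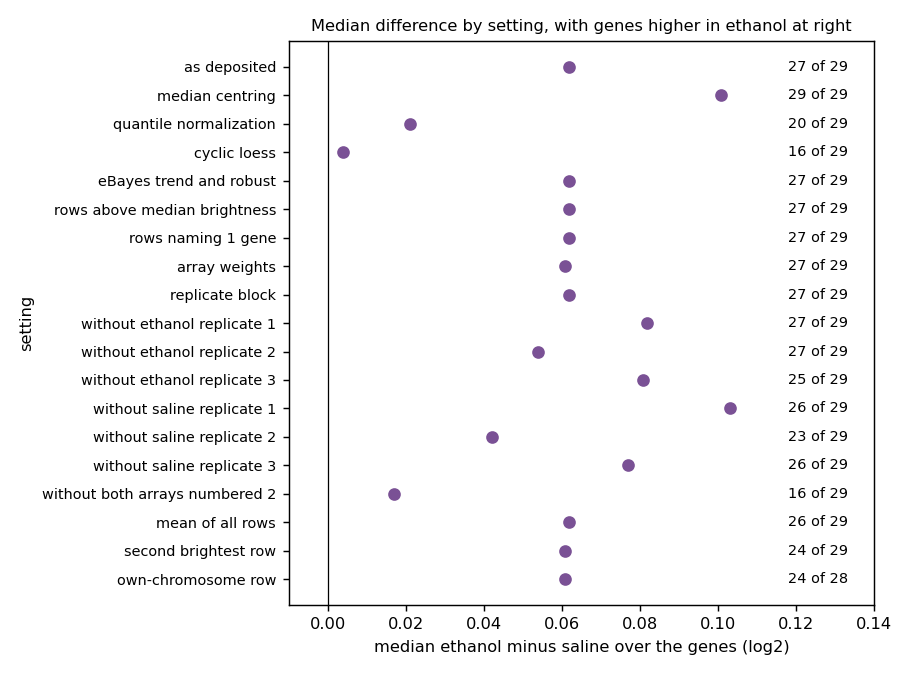
Median log2 difference, ethanol minus saline, over the measured genes under each setting (points), with the number of genes higher in ethanol at right. The median is 0.06 as reported, 0.00 after cyclic loess and 0.10 without saline array 1.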

How the data were processed

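RNA labelled as mouse hippocampus was measured on 6 Affymetrix whole-transcript arrays, each from 200 ng of RNA per the labels' protocols. The table the authors deposited holds log2 values, summarized for 41345 probe rows; background correction and normalization are not given in the sources used here. The scale was judged log2 from the range of the values. Per the submitters' processing notes the build was mm 10. By the platform annotation 23521 rows named 1 gene, 1814 several and 16010 were unnamed here. Chromosomes and promoters were RefSeq's on GRCm38.

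Each row was fitted in limma 3.58.1 (R 4.3.3) with no filter or covariate, two-sided, with Benjamini-Hochberg adjustment across the whole table. Standard errors are limma's. Isoform balances were tested by exact permutation. The fit was first tested on simulated rows with independent noise and no trend with brightness between arrays. That test therefore does not bear on such trends in these data. Arrays were the replicates, so a p-value reflects variation from pool to pool, and precision is limited by having few arrays. Alternatives covered scaling, the limma prior, row filters, array weights, the array number as a block, thresholds, the row per gene and each array left out. By the naming rule every array's value was given for members with an unadjusted p under 0.05, with groups apart, or among the 4 largest differences in each direction, and from other lists genes with an unadjusted p under 0.05 were named, at most 3 a list. Array values of other members, and the other list genes named, were chosen for their roles after values were seen. Members and lists were chosen with earlier results of these data known.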

Additional observations from a re-analysis of the deposited data

How the results depend on the processing

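Limma called 0 rows under each scaling, prior, filter and weighting tried, at adjusted p thresholds of 0.1 and 0.25, and without both arrays numbered 2. Leaving out 1 array gave 0 to 1, and the 1 row, seen without saline array 3, was not the row kept for any member. Members at an unadjusted p under 0.05 numbered 0 to 3 with 1 array left out (Slc2a3, Mpc1 and Pdk2 without saline array 1, Mpc1 without ethanol array 3) and 0 otherwise; the exact test cannot pass at this size. Deviations of same-numbered arrays correlated at 0.10, -0.06 and 0.04, and those of differently numbered arrays at -0.13 to 0.10. The labels do not say what a shared number marks, and this was not tested. With the replicate block 0 rows were called, 27 members were higher and the median difference was 0.06. Members higher in ethanol numbered 29 with median centring, which raised the median of all rows to 0.04, 20 with quantile normalization, 16 after cyclic loess, 16 without both arrays numbered 2, and 23 to 27 with 1 array left out. Of all genes 70.5% were higher with median centring, 57.9% with quantile normalization and 54.5% after cyclic loess. Of 521 member values under 18 alternatives, 61 had the opposite sign and 0 were called. Many of the 521 could not change sign. The limma prior, the row filters and the block leave every difference as it was. The choice of row moves only the 4 members with over 1 row. The share of 61 in 521 is therefore no measure of stability.

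These log2 differences changed sign, and the cause was not tested. After cyclic loess they were -0.069 for Slc16a1, -0.016 for Hk1, -0.027 for Pfkm, -0.020 for Pfkp, -0.061 for Gapdh, -0.0025 for Pgk1, -0.027 for Pkm, -0.028 for Ldhb, -0.012 for Pdha1, -0.025 for Dld, -0.0028 for Pdk1 and 0.059 for Pdk4 minus Pdk2. With quantile normalization they were -0.060 for Slc16a1, 0.0031 for Slc16a3, -0.011 for Hk1, -0.010 for Pfkm, -0.011 for Pfkp, -0.00032 for Gapdh, -0.015 for Ldhb, -0.0065 for Pdha1, -0.021 for Dld, -0.00028 for Pfkp minus Pfkm and 0.051 for Pdk4 minus Pdk2. Median centring gave 0.014 for Slc16a3 and 0.037 for Pfkl. Array weights gave -0.034 for Slc16a1 and 0.0062 for Pfkl. The mean of a gene's rows gave -0.055 for Pdk1. The second brightest row gave -0.036 for Pgam1, -0.017 for Mpc1 and -0.12 for Pdk1. The row on the gene's own chromosome, an alternative chosen after seeing the data, gave -0.036 for Pgam1 and -0.017 for Mpc1. Without both arrays numbered 2, also chosen after seeing the data, they were -0.063 for Slc16a1, 0.079 for Slc16a3, -0.055 for Pfkp, -0.028 for Pfkfb2, -0.0052 for Pfkfb3, -0.0099 for Pkm, -0.021 for Ldhb, -0.12 for Pdha1, -0.0034 for Pdhb, -0.025 for Dld, -0.00029 for Pdhx, -0.0045 for Pdk2 and -0.039 for Pdk3.

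With 1 array left out the difference ran -0.10 to 0.082 for Slc16a1, -0.12 to 0.052 for Slc16a3, -0.041 to 0.052 for Pfkl, -0.020 to 0.13 for Pfkp, -0.038 to 0.12 for Pfkfb3, -0.037 to 0.20 for Pdha1, -0.016 to 0.054 for Pdk1, -0.022 to 0.26 for Pdk2 and -0.027 to 0.11 for Pdk4. For the isoform pairs it ran -0.064 to 0.090 for Ldha minus Ldhb, -0.0091 to 0.044 for Hk2 minus Hk1, -0.061 to 0.077 for Pfkp minus Pfkm, -0.28 to 0.12 for Pdk4 minus Pdk2 and -0.12 to 0.043 for Pfkfb3 minus Pfkfb2.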
